A study of Mus musculus with 18 samples.

Results

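The genes described here are 47 mouse genes that make, take up, activate, store and oxidize fatty acids, together with the PPAR receptors and PGC-1 coactivators known to regulate these steps. They were chosen by name from a table of 27179 genes, and all 47 averaged 10 or more normalized counts across the 18 libraries, the level from which 14353 genes in all were tested. By role there were 5 genes of fatty acid synthesis from acetyl-CoA, 8 of desaturation and elongation, 8 of uptake, binding and activation, 7 of storage and lipolysis, 4 of the carnitine shuttle, 11 of mitochondrial beta-oxidation and 4 regulators. Synthesis with desaturation and elongation made a synthesis arm of 13 genes, and the carnitine shuttle with beta-oxidation made an oxidation arm of 15, and these arms are described apart.

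RNA was sequenced from primary bone marrow mesenchymal stem cells (MSCs), the adherent stromal cells of marrow, taken from C57BL6 mice that carried no further allele or transgene named in the labels. The 18 libraries comprised 6 of young MSCs (mice of 6 weeks), 6 of old MSCs (18 to 24 months) and 6 of rejuvenated old MSCs, all from day 7 of culture. For expansion the labels give alpha-MEM with 20% serum, whereas the study's methods describe a low-serum endothelial medium, and which was used for these libraries is not resolved here. Rejuvenated old MSCs were wells of 100000 old cells that shared their medium with young MSCs across a membrane with pores of 0.4 µm, through which soluble factors but not cells pass. The study asked what such factors change in old cells. A control of old cells sharing medium with a further old layer is not analysed here, so the presence of a second cell layer and the age of that layer cannot be told apart. The labels call the replicates biological but do not tie them to separate animals, so the p-values measure the spread between these cultures, which may be technical.

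Fatty acids are built in the cytosol from acetyl-CoA, which is carboxylated to malonyl-CoA and joined into palmitate, and are then lengthened by elongases and made unsaturated by desaturases. Fatty acids from outside the cell enter through carriers, are bound by small cytosolic proteins and are activated to acyl-CoA, after which they are stored as triglyceride in lipid droplets or carried by the carnitine shuttle into mitochondria, where beta-oxidation shortens them in repeated cycles. Marrow stromal cells can turn into fat-storing adipocytes, and PPARs are nuclear receptors that bind fatty acids and regulate many of the genes named below.

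Between 22936251 and 29559194 reads fell on genes in each library. The most abundant of 12 stromal markers were Cxcl12 and Col1a2. Of these 12, 5 were higher and 7 lower in young than in old MSCs, against 41.6% and 44.1% of all genes tested. Thy1, one of the 5, had 175 to 227 counts in young and 0 to 21.6 (median 0.944) in rejuvenated old MSCs. It did not exceed 3 reads in any old library. Eng, one of the 7, had 147 to 175 counts in young, 7008 to 7681 in old and 7557 to 8158 in rejuvenated old MSCs. The summed level of 16 macrophage markers, led by Lyz2 and C1qc, ran from 933 to 1049.8 in young, from 17738 to 22078 in old and from 17709.8 to 21539.5 in rejuvenated old MSCs. Of these 16, 9 did not exceed 3 reads in any young library, with the defining markers Ptprc and Adgre1 at 0, whereas all 16 had a median of at least 10 in old and in rejuvenated old MSCs. The summed level of 12 adipocyte markers, led by Lpl and Cebpa, ran from 17918 to 20404 in young, from 49031 to 50649 in old and from 51798 to 64825 in rejuvenated old MSCs. Of these 12, 5 did not exceed 3 reads in any young library, and Lep was at 0 in all libraries. Between rejuvenated old and old MSCs 1 macrophage marker of 16 tested was higher and 1 lower, and 5 adipocyte markers of 8 tested were higher and 2 lower. Over all genes tested these shares were 21.0% higher and 20.6% lower. Of 8 osteoblast markers, led by Col1a1 and Runx2, 1 was higher and 5 were lower, against the same shares. All 8 osteoblast markers were lower in young than in old MSCs, against 44.1% of all genes tested. A median of at least 10 was reached by 3 of them in young and by all 8 in old MSCs. The sum of the 8 ran from 92967 to 110912 in young, from 108335 to 121445 in old and from 81886.5 to 92005 in rejuvenated old MSCs. Col1a1 made up most of that sum, with a mean of 109095 in old and 81975 in rejuvenated old MSCs. Of 8 endothelial markers, led by Vwf and Kdr, the sum lay between 127 and 247 in all libraries, with Cldn5 at 0. The single markers went both ways. Of the 3 tested, 2 were higher and 1 lower in young than in old MSCs, against 41.6% and 44.1% of all genes tested. Kdr had 68.2 to 106, 4.30 to 19.7 and 1.89 to 9.66 counts in young, old and rejuvenated old MSCs. Vwf had 42.8 to 73.5, 104 to 147 and 130 to 189. In bulk RNA fewer cells of a type and less RNA per cell cannot be told apart, and the part of these markers in the results below was not tested. The summed level of 4 Y chromosome genes was 0 to 5.15 in young, 5035 to 5604 in old and 4898 to 5979.9 in rejuvenated old MSCs, although the study's methods give male mice at both ages. In each difference from young MSCs age and this Y chromosome difference cannot be told apart.

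Between rejuvenated old and old MSCs, 23 of the 47 genes were lower after co-culture, 4 were higher and 20 did not pass the test. Among all genes tested 20.6% were lower and 21.0% higher, and these shares also stand beside the counts by role below. The median log2 fold change of the 47 genes was -0.16, against 0.0081 over all genes tested. In 17 of the 47 all 6 rejuvenated old libraries lay below all 6 old ones and in 2 they lay above, while over all genes tested these shares were 11.6% and 10.4%. A fold change of at least 0.5 on the log2 scale was reached by 7 of the lower genes, which were Cd36, Ppargc1b, Scd2, Fabp3, Scd1, Elovl6 and Lpin1, and by Fabp5 alone among the higher ones. At the same limit 618 of the 14353 genes tested were lower and 621 higher. Fold changes are differences of group means of log2(normalized count + 1), a normalized count being the reads of a gene divided by the size factor of its library. A gene passed with a Benjamini-Hochberg adjusted p under 0.05 from limma over the 14353 genes.

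Between young and old MSCs, 23 of the 47 genes were lower in young, 16 were higher and 8 did not pass. Most genes tested differed as well, with 44.1% of all genes tested lower in young and 41.6% higher, so the share of the 47 that differed, 83.0%, lay near the 85.7% over all genes. The groups did not overlap in 21 genes that were lower in young and in 15 that were higher, against 38.2% and 35.7% of all genes tested. Between young and rejuvenated old MSCs, 22 of the 47 were higher in young, 20 were lower and 5 did not pass, which is 89.4% called, against 85.6% over all genes tested (41.5% higher and 44.1% lower). These groups did not overlap in 20 genes that were higher in young and 17 that were lower, against 34.0% and 36.5% of all genes tested. The 3 comparisons share their libraries with each other, so a gene's fold changes are set side by side and not combined.

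**Figure D1:**
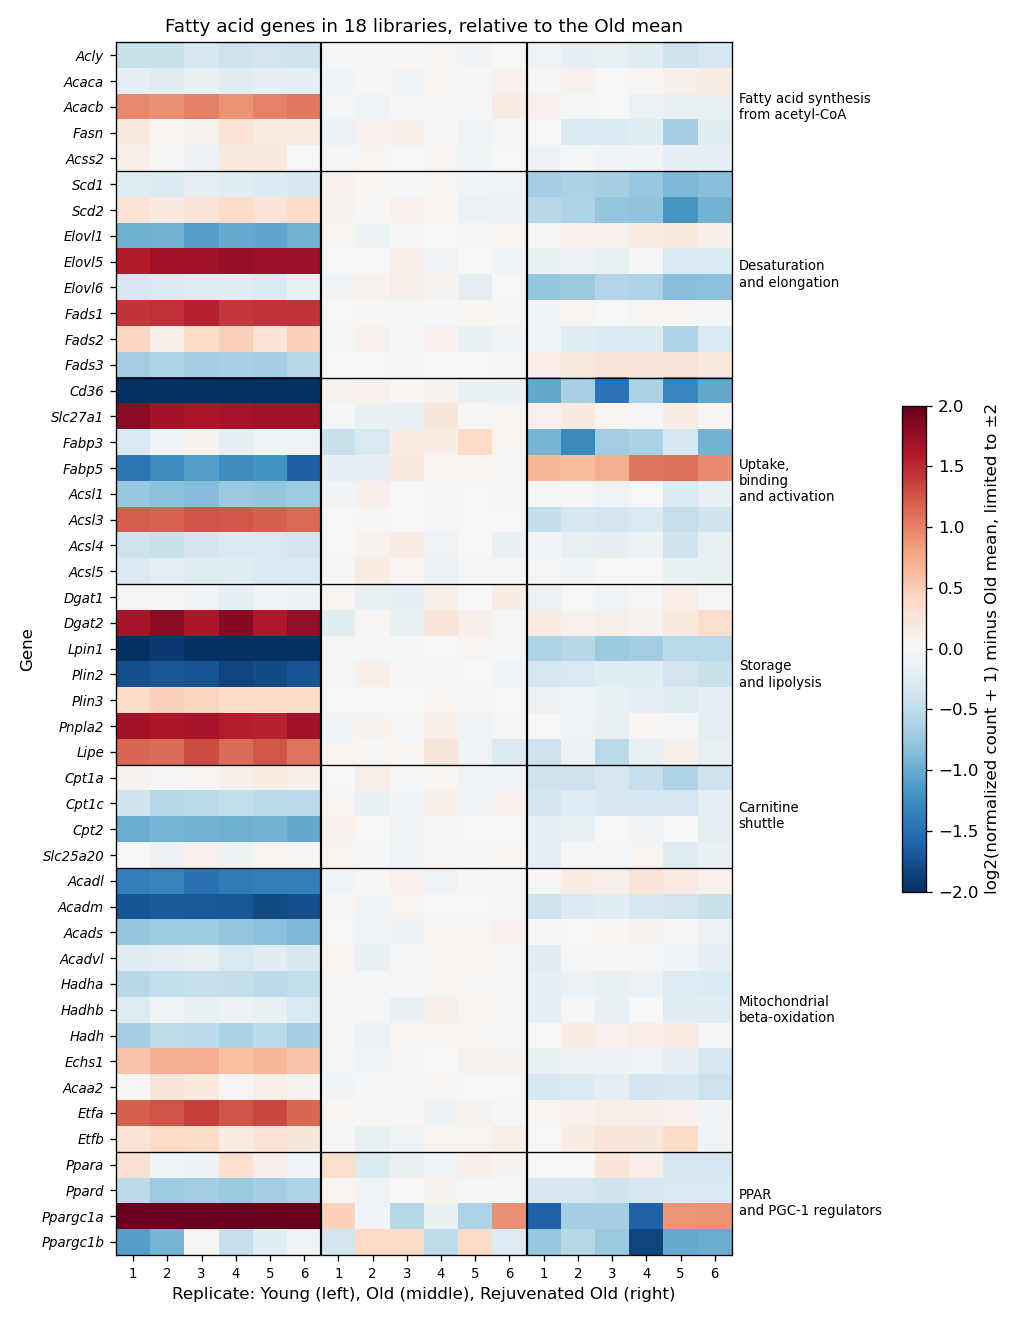
Each row is a gene and each column a library (6 replicates per group, with young, old and rejuvenated old MSCs from left to right), and color shows log2(normalized count + 1) minus the gene's mean over the old libraries, limited to ±2. The rejuvenated old columns are blue in 23 rows that passed the test as lower, most deeply in Scd1, Scd2, Elovl6, Cd36, Fabp3, Lpin1 and Ppargc1b, and clearly red in Fabp5.

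In the synthesis of fatty acids from acetyl-CoA, Acly and Fasn fell after co-culture and none of the 5 genes rose. Acly (ATP citrate lyase, which makes cytosolic acetyl-CoA from citrate; chr11:100476352-100528000 of mm10) had normalized counts of 3199 to 3491 (median 3282) in young, 4189 to 4506 (median 4419) in old and 3295 to 4156 (median 3811) in rejuvenated old MSCs. Every rejuvenated old library lay below every old one, but that group spread over a wider range and overlapped the young libraries. The fold change of rejuvenated old against old MSCs was -0.23 ± 0.043 SE, adjusted p = 0.000219, and that of young against old MSCs was -0.41 ± 0.043 SE, adjusted p = 9.74e-09.

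The 250 bases before the Acly start, taken from RefSeq GRCm38.p6 (chr11:100528001-100528250, minus strand), are shown because 4 copies of the GC box GGGCGG, the core of sites for SP1-type factors, lie in them on either strand.
Acly: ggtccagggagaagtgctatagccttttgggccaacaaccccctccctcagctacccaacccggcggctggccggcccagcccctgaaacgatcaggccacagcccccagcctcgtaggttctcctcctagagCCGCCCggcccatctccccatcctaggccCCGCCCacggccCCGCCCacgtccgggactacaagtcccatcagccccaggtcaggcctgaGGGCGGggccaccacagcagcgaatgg
Capitals mark GGGCGG or its reverse complement. The box was present in 25 of the 39 members with a promoter in the table and in 35.4% of 27025 genes over the same window. The 27025 genes include genes below the level tested here, whereas all members lie above it, and no difference between these shares was tested. CCAAT, the NF-Y core, was present in 19 of 39 members and in 37.5% of genes. CACGTG was found in 3 members and 6.86% of genes, and the sterol regulatory sequence TCACNCCAC in 1 member, Acsl1, and 1.22% of genes. The PPAR element, a direct repeat of AGGTCA with 1 base between the copies, was found in 0 members and 0.0407% of genes. Both strands were searched and no motif held another. These counts describe letters in a window and no binding was measured.

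Fasn (fatty acid synthase, which builds palmitate) had 2911 to 3407 (median 3156) counts in young, 2616 to 3032 (median 2835) in old and 1787 to 2822 (median 2384) in rejuvenated old MSCs. Its old and rejuvenated old libraries overlapped, and the lowest value of all 18 was that of rejuvenated old replicate 5. The fold change was -0.27 ± 0.071 SE, adjusted p = 0.00369 for rejuvenated old against old MSCs. Young and old MSCs did not pass the test for Fasn (log2 fold change 0.15 ± 0.071 SE, adjusted p = 0.0616), whereas young exceeded rejuvenated old MSCs by 0.42 on the log2 scale (adjusted p = 1.07e-05).

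The acetyl-CoA carboxylases, which make malonyl-CoA, differed by age and did not pass the test after co-culture. Acacb, the form tied to the mitochondrial surface, had 518 to 581 (median 550.3) counts in young, 261 to 314 (median 272) in old and 251 to 296 (median 265) in rejuvenated old MSCs. All its young libraries lay above all others, with a log2 fold change of 0.97 ± 0.056 SE, adjusted p = 1.55e-13 against old MSCs. After co-culture its fold change was -0.059 ± 0.056 SE, adjusted p = 0.43. Acaca, the cytosolic form, was lower in young than in old MSCs (log2 fold change -0.19 ± 0.035 SE, adjusted p = 3.76e-05), and its fold change after co-culture was 0.057 ± 0.035 SE, adjusted p = 0.212. Of the 50-base stretches of the Acaca transcript 52.6% also occur in another annotated gene, mostly Gm5182, so its count is uncertain. Acss2, which activates acetate, had 396 to 485, 405 to 442 and 377 to 414 counts in young, old and rejuvenated old MSCs and passed only between young and rejuvenated old MSCs (log2 fold change 0.17, adjusted p = 0.00475).

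Desaturation and elongation held the largest falls of the synthesis arm after co-culture. Of the 8 genes 5 fell (Scd1, Scd2, Elovl5, Elovl6 and Fads2), 2 rose (Elovl1 and Fads3) and Fads1 did not pass. Scd1 and Scd2 encode stearoyl-CoA desaturases, which turn saturated into monounsaturated fatty acids, and they lie 87585 bases apart on chromosome 19. Scd2 (chr19:44293676-44306864) had 7733 to 8824 (median 8269) counts in young, 6346 to 7265 (median 6994) in old and 3029 to 4686 (median 3943) in rejuvenated old MSCs. Scd1 (chr19:44394450-44407709) had 2769.9 to 3042 (median 2890.0) counts in young, 3292 to 3642 (median 3447) in old and 1845 to 2213 (median 2089.5) in rejuvenated old MSCs. For both genes every rejuvenated old library lay below every young and every old library, and the group order of young and old MSCs was opposite in the pair. Scd2 fell after co-culture (log2 fold change -0.81 ± 0.073 SE, adjusted p = 9.75e-09), and Scd1 (log2 fold change -0.75 ± 0.042 SE, adjusted p = 4.04e-12). Young against old MSCs gave log2 fold changes of 0.28 ± 0.073 SE, adjusted p = 0.00115 for Scd2 and -0.25 ± 0.042 SE, adjusted p = 9.36e-06 for Scd1. Against rejuvenated old MSCs, young MSCs were higher in both, by 1.10 for Scd2 (adjusted p = 2.38e-12) and by 0.50 for Scd1 (adjusted p = 1.76e-10).

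The elongases did not move as a group. Elovl6, which lengthens palmitate to stearate, fell after co-culture (log2 fold change -0.73 ± 0.059 SE, adjusted p = 1.95e-09), with 424 to 490.1, 473 to 585 and 305 to 359.6 counts in young, old and rejuvenated old MSCs. Its rejuvenated old libraries lay below all others. Elovl5, which lengthens polyunsaturated chains, had 2574 to 2876 (median 2789) counts in young, 821 to 929 (median 862) in old and 698 to 838 (median 780.4) in rejuvenated old MSCs. It was far higher in every young library than in any other, with a fold change of 1.68 ± 0.044 SE, adjusted p = 3.55e-20 against old MSCs. It fell after co-culture (log2 fold change -0.17 ± 0.044 SE, adjusted p = 0.00383). Elovl1, which makes very long saturated chains, was lower in young than in old MSCs (log2 fold change -1.01 ± 0.035 SE, adjusted p = 7.61e-18) and rose after co-culture (log2 fold change 0.11 ± 0.035 SE, adjusted p = 0.0123).

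The fatty acid desaturase genes Fads1, Fads2 and Fads3 stand in a row on chromosome 19, Fads3 and Fads2 2651 bases apart and Fads2 and Fads1 81373 bases apart, and they differed in different directions. Fads1 (delta-5 desaturase) had 7135 to 7758 (median 7248) counts in young, 2610.1 to 2729 (median 2668) in old and 2577 to 2776 (median 2721) in rejuvenated old MSCs. The old and rejuvenated old libraries lay in the same range, far below all young ones. The log2 fold change was 1.46 ± 0.027 SE, adjusted p = 8.67e-23 for young against old MSCs and 0.017 ± 0.027 SE, adjusted p = 0.66 after co-culture. Fads2 (delta-6 desaturase) was higher in young than in old MSCs (log2 fold change 0.35 ± 0.075 SE, adjusted p = 0.000184) and fell after co-culture (log2 fold change -0.29 ± 0.075 SE, adjusted p = 0.00339). Fads3, which acts on sphingoid bases, was lower in young than in old MSCs (log2 fold change -0.64 ± 0.029 SE, adjusted p = 1.39e-15) and rose after co-culture (log2 fold change 0.22 ± 0.029 SE, adjusted p = 2.7e-06). Its groups did not overlap, with 3802 to 4213, 5986 to 6311 and 6797 to 7426 counts in young, old and rejuvenated old MSCs. Per kilobase of main transcript, Fads1 stood at 2115 normalized counts and Fads3 at 1075 in young MSCs, while in old MSCs Fads1 stood at 770.4 and Fads3 at 1677.

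**Figure D2:**
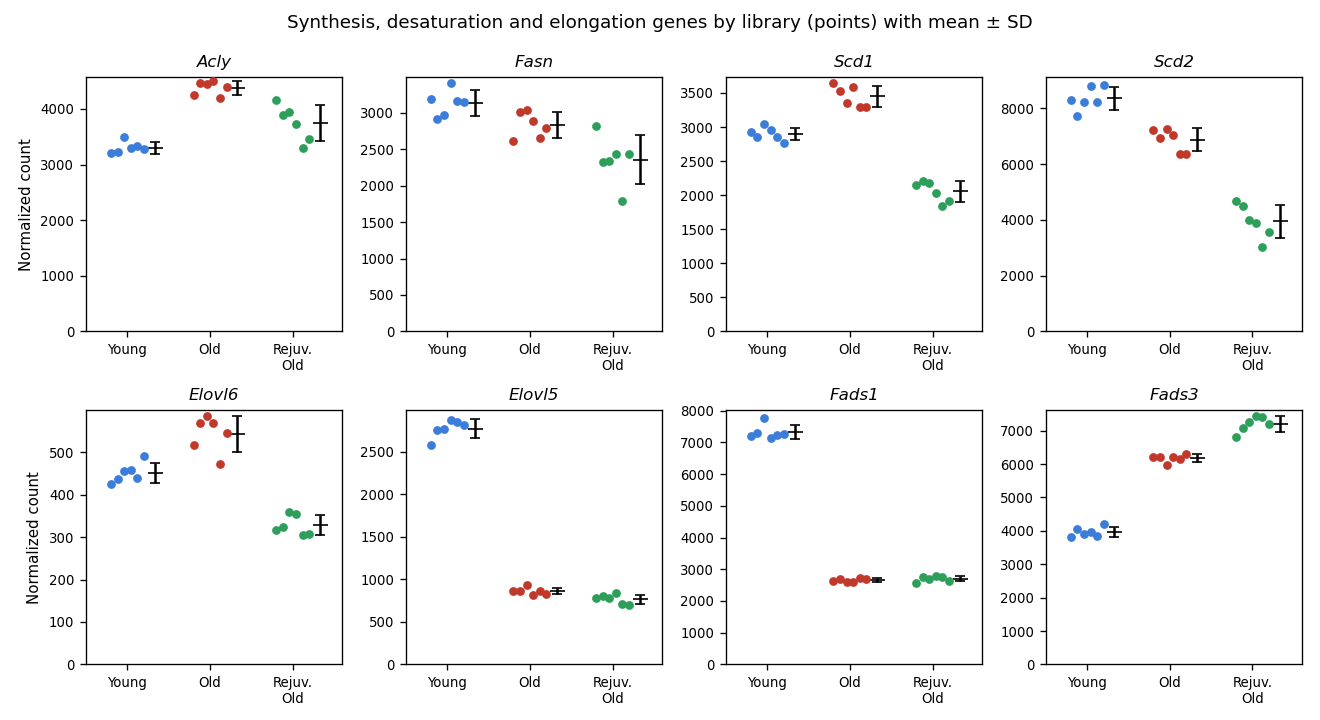
Each panel plots the normalized count of a synthesis arm gene (linear axis from 0) in each library (points, 6 per group), with the mean ± SD beside them, Elovl6 and Fads3 having been added after their values were seen. In Scd1, Scd2 and Elovl6 the rejuvenated old points lie below all others, whereas in Fads1 and Elovl5 only the young points stand apart.

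Uptake, binding and activation genes held both the largest fall and the largest rise of all 47 genes after co-culture. Of the 8 genes, Cd36, Fabp3, Acsl3 and Acsl4 fell, Fabp5 rose and 3 did not pass. Cd36 (a surface receptor that takes up long-chain fatty acids, present on adipocytes and macrophages; chr5:17781690-17888959) was listed at 0 in 4 young libraries and at 1.03 and 1.07 counts in the others, each a single read. It had 242 to 283 (median 277) counts in old and 95.1 to 172 (median 131) in rejuvenated old MSCs, and none of the groups overlapped. The log2 fold change after co-culture was -1.02 ± 0.21 SE, adjusted p = 0.00038. Against a floor of 3 reads per library, Cd36 was at least 79.7-fold lower in young than in old MSCs and at least 40.1-fold lower than in rejuvenated old MSCs. At the same floor in young MSCs were 9 of 16 macrophage markers and 5 of 12 adipocyte markers. Apart from Lep, which was at 0 in all libraries, these markers share this age pattern, and their part in the Cd36 difference was not tested. After co-culture the summed macrophage markers overlapped between old and rejuvenated old MSCs. The adipocyte markers went both ways, since Lpl, which makes up most of their sum, rose (log2 fold change 0.30 ± 0.049 SE, adjusted p = 5e-05) and Plin1 and Plin4 fell, as Cd36 did (log2 fold change of Plin4 -0.33 ± 0.051 SE, adjusted p = 1.82e-05). Adipoq, the adipocyte hormone adiponectin, had 1079 to 1246 counts in old and 561 to 922 in rejuvenated old MSCs without overlap, but did not pass (log2 fold change -0.63 ± 0.29 SE, adjusted p = 0.0816). All 3 groups share one estimate of the spread, so this SE includes young libraries at 0 to 3.26 counts, where single reads weigh heavily. The SE of Cd36 is limited in the same way.

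Fabp5, a cytosolic fatty acid binding protein, ran the other way. It had 97.8 to 143 (median 129) counts in young, 274 to 349 (median 315) in old and 479 to 660.3 (median 548) in rejuvenated old MSCs, with no overlap between the groups. It rose after co-culture (log2 fold change 0.86 ± 0.098 SE, adjusted p = 3.44e-07), and young MSCs were lower than old (log2 fold change -1.31 ± 0.098 SE, adjusted p = 1.67e-11). Young and rejuvenated old MSCs lay at opposite ends (log2 fold change -2.17, adjusted p = 1.45e-15). Of its 50-base stretches 21.1% occur in another annotated gene, mostly Gm6166. Fabp3, the heart-type binding protein, was a low gene with 40.3 to 52.5, 36.6 to 66.2 and 19.8 to 39.1 counts in young, old and rejuvenated old MSCs and fell after co-culture (log2 fold change -0.81 ± 0.16 SE, adjusted p = 0.000331). Of its stretches 37.3% occur elsewhere, mostly in its pseudogene Fabp3-ps1.

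Slc27a1, a fatty acid transport protein, differed by age with no call after co-culture. It had 1441 to 1632 (median 1495) counts in young, 426 to 548 (median 466) in old and 458 to 530.5 (median 491) in rejuvenated old MSCs. All young libraries lay above all others, with a log2 fold change of 1.68 ± 0.055 SE, adjusted p = 2.74e-18 against old MSCs. After co-culture it was 0.076 ± 0.055 SE, adjusted p = 0.286. The long-chain acyl-CoA synthetases, which activate fatty acids, split by age. Acsl3, found at the endoplasmic reticulum and on lipid droplets, was higher in young than in old MSCs (log2 fold change 1.20 ± 0.033 SE, adjusted p = 8.47e-20). It fell after co-culture (log2 fold change -0.40 ± 0.033 SE, adjusted p = 2.28e-09), from 1073 to 1106 counts in old to 785 to 882 in rejuvenated old MSCs. Acsl1, Acsl4 and Acsl5 were lower in young than in old MSCs, with log2 fold changes of -0.78, -0.37 and -0.25 (adjusted p = 6.05e-14, 1.05e-06 and 4.65e-06). After co-culture Acsl4, which favours arachidonate, fell (log2 fold change -0.17 ± 0.053 SE, adjusted p = 0.0121), and Acsl1 and Acsl5 did not pass (adjusted p = 0.0811 and 0.249).

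Of the 7 storage and lipolysis genes Lpin1, Plin2 and Plin3 fell after co-culture and none rose. In young MSCs 4 of the 7 were higher and 2 lower than in old MSCs, against 41.6% and 44.1% of all genes tested. Lpin1 (lipin 1, a phosphatidate phosphatase that makes diacylglycerol and also acts as a coactivator of fatty acid oxidation genes; chr12:16535669-16653903) had 556 to 619.6 (median 587) counts in young, 2282 to 2435 (median 2325) in old and 1399.5 to 1610.2 (median 1559) in rejuvenated old MSCs. Plin2 (perilipin 2, which coats lipid droplets in most cells; chr4:86626910-86670217) had 1436 to 1559 (median 1526) counts in young, 4918 to 5497 (median 5072) in old and 3777 to 4401 (median 4082) in rejuvenated old MSCs. In both genes the young libraries were lowest, the old highest and the rejuvenated old between them, without overlap. Lpin1 fell after co-culture (log2 fold change -0.61 ± 0.039 SE, adjusted p = 2.68e-11), and Plin2 (log2 fold change -0.32 ± 0.038 SE, adjusted p = 5.36e-07). Young against old MSCs gave log2 fold changes of -2.00 ± 0.039 SE, adjusted p = 1.39e-22 for Lpin1 and -1.76 ± 0.038 SE, adjusted p = 1.07e-21 for Plin2, and young against rejuvenated old MSCs gave -1.39 and -1.44. Plin3, another droplet coat protein, was higher in young than in old MSCs (log2 fold change 0.40, adjusted p = 1.01e-11) and fell after co-culture (log2 fold change -0.16 ± 0.029 SE, adjusted p = 0.000169).

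The lipases Pnpla2 (adipose triglyceride lipase) and Lipe (hormone-sensitive lipase), which release fatty acids from droplets, were higher in young than in old MSCs. The log2 fold changes were 1.62 ± 0.043 SE, adjusted p = 5.54e-20 for Pnpla2 and 1.17 ± 0.1 SE, adjusted p = 2.67e-10 for Lipe. After co-culture neither passed, with log2 fold changes of -0.063 (adjusted p = 0.257) and -0.21 (adjusted p = 0.105). Dgat2, which adds the last acyl chain of triglyceride, was higher in young than in old MSCs as well (log2 fold change 1.71 ± 0.076 SE, adjusted p = 1.12e-15), at 448 to 521 against 127 to 175 counts. In rejuvenated old MSCs it had 155 to 189 counts, which did not pass against old MSCs (adjusted p = 0.0884). Dgat1, an enzyme of the same step, passed in none of the 3 comparisons (adjusted p = 0.77, 0.161 and 0.311 for rejuvenated old against old, young against old and young against rejuvenated old). Of the Lipe transcript 23.8% is overlapped by a gene on the opposite strand, and whether reads were counted by strand is not stated.

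In the carnitine shuttle 3 of 4 genes (Cpt1a, Cpt1c and Cpt2) fell after co-culture and none rose, where 20.6% of all genes tested were lower. The Cpt2 call was lost in some other settings, as given below. Cpt1a (carnitine palmitoyltransferase 1A, the rate-limiting step of fatty acid entry into mitochondria; chr19:3322326-3385735) had 2163 to 2346 (median 2261) counts in young, 2029 to 2313 (median 2099.8) in old and 1384 to 1688 (median 1596) in rejuvenated old MSCs. Young and old libraries overlapped and did not pass the test (log2 fold change 0.082 ± 0.042 SE, adjusted p = 0.0722), while all rejuvenated old libraries lay below both. Cpt1a fell after co-culture (log2 fold change -0.44 ± 0.042 SE, adjusted p = 1.98e-08), and young exceeded rejuvenated old MSCs by 0.52 on the log2 scale (adjusted p = 5.81e-11). Cpt1c, a brain-enriched relative located at the endoplasmic reticulum, had 1963 to 2219 (median 2018) counts in young, 2667 to 3125 (median 2917) in old and 2272 to 2582 (median 2317) in rejuvenated old MSCs. It was ordered as Lpin1 and Plin2 were, with rejuvenated old libraries between the others. It fell after co-culture (log2 fold change -0.30 ± 0.042 SE, adjusted p = 5.29e-06), and young against old MSCs gave -0.51 ± 0.042 SE, adjusted p = 1.02e-10.

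Cpt2, which restores acyl-CoA inside the mitochondrion, had 697 to 749 (median 727) counts in young, 1347 to 1518 (median 1427) in old and 1242 to 1419.5 (median 1328) in rejuvenated old MSCs. All young libraries were lower than all others (log2 fold change, young against old, -0.97 ± 0.039 SE, adjusted p = 1.86e-16), and old and rejuvenated old libraries overlapped. Its log2 fold change after co-culture was small, -0.10 ± 0.039 SE, adjusted p = 0.0428. The call was lost in 10 of 31 other settings, 7 of which left out a library, with adjusted p-values up to 0.108. Slc25a20, the carrier that exchanges acylcarnitine for carnitine, passed in no comparison, with 893 to 1019, 918 to 1001 and 814 to 1003 counts in young, old and rejuvenated old MSCs.

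Of the 11 beta-oxidation genes 4 fell after co-culture (Acadm, Acaa2, Hadha and Echs1), Acadl rose and 6 did not pass. All 11 passed between young and old MSCs, 7 lower and 4 higher in young, where 85.7% of all genes tested passed. The acyl-CoA dehydrogenases catalyse the opening step for chains of different length. Acadm (medium-chain; chr3:153922353-153944643) had 2496 to 2693 (median 2614) counts in young, 8257 to 8932 (median 8591) in old and 6336 to 7329 (median 6759) in rejuvenated old MSCs. No groups overlapped and the rejuvenated old libraries lay nearer to the old than to the young ones. The fold change was -1.72 ± 0.034 SE, adjusted p = 1.65e-22 for young against old MSCs and -0.34 ± 0.034 SE, adjusted p = 3.06e-08 for rejuvenated old against old MSCs. Acadl (long-chain; chr1:66830839-66863309) had 769 to 861 (median 827) counts in young, 2054 to 2286 (median 2185) in old and 2124 to 2548 (median 2370.5) in rejuvenated old MSCs. It was lower in young than in old MSCs (log2 fold change -1.39 ± 0.04 SE, adjusted p = 2.53e-19). It rose after co-culture (log2 fold change 0.12 ± 0.04 SE, adjusted p = 0.0168) with overlapping groups, a call that was lost without rejuvenated old replicate 4 (adjusted p = 0.0506). Acads (short-chain) and Acadvl (very long-chain) were lower in young than in old MSCs with log2 fold changes of -0.79 and -0.23 (adjusted p = 1.5e-14 and 1.8e-05) and did not pass after co-culture (adjusted p = 0.99 and 0.0595). Of the Acadvl transcript 45.0% is overlapped on the opposite strand by Dvl2.

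Hadha and Hadhb, the subunits of the mitochondrial trifunctional protein that handles long chains, start from opposite strands with 272 bases between them on chromosome 5. The 250 bases before the Hadhb start (RefSeq GRCm38.p6, chr5:30155003-30155252, plus strand) lie within that gap and are shown because they lie between both starts.
Hadhb: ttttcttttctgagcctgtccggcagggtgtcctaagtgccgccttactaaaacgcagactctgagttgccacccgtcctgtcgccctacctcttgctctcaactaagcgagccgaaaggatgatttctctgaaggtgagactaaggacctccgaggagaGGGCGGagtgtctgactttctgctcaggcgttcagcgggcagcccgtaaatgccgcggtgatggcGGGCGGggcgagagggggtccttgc
Capitals mark the GC box GGGCGG, present at 2 places. Hadha fell after co-culture (log2 fold change -0.19 ± 0.03 SE, adjusted p = 3.51e-05), with 4951 to 5265 counts in old and 4230.0 to 4698 in rejuvenated old MSCs. Hadha was lower in young than in old MSCs (log2 fold change -0.50 ± 0.03 SE, adjusted p = 3.78e-13). Hadhb gave a log2 fold change of -0.12 ± 0.052 SE, adjusted p = 0.0599 after co-culture, which did not pass, and -0.17 ± 0.052 SE, adjusted p = 0.00431 for young against old MSCs. The latter call was lost when every library was scaled to the same total (adjusted p = 0.0811). The counts of Hadhb are uncertain, since 62.4% of its 50-base stretches occur in another annotated gene, mostly Gm13910.

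The enzymes after dehydrogenation did not move together. Acaa2, the mitochondrial thiolase that cuts off acetyl-CoA, had 2006 to 2349 (median 2108) counts in young, 1915 to 2064 (median 1978) in old and 1476 to 1722 (median 1589) in rejuvenated old MSCs. All rejuvenated old libraries lay below all others, with a log2 fold change of -0.32 ± 0.042 SE, adjusted p = 2.31e-06 against old MSCs. Young and old libraries of Acaa2 overlapped (log2 fold change 0.11 ± 0.042 SE, adjusted p = 0.0182), and that call was lost without young replicate 2 or 3 (adjusted p = 0.0606 and 0.0512). Echs1 (enoyl-CoA hydratase) fell after co-culture (log2 fold change -0.16 ± 0.043 SE, adjusted p = 0.0043) and was higher in young than in old MSCs (log2 fold change 0.64 ± 0.043 SE, adjusted p = 2.42e-12). Hadh (hydroxyacyl-CoA dehydrogenase) was lower in young than in old MSCs (log2 fold change -0.59 ± 0.041 SE, adjusted p = 4.76e-12) and gave a log2 fold change of 0.084 ± 0.041 SE, adjusted p = 0.109 after co-culture.

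Etfa and Etfb, the subunits of the flavoprotein that takes electrons from the acyl-CoA dehydrogenases, were higher in young than in old MSCs and did not pass after co-culture. Etfa had 5858 to 6877, 2462 to 2771 and 2547 to 2858 counts in young, old and rejuvenated old MSCs. Its log2 fold changes were 1.26 ± 0.04 SE, adjusted p = 1.57e-18 for young against old MSCs and 0.06 ± 0.04 SE, adjusted p = 0.247 after co-culture. Etfb gave log2 fold changes of 0.28 ± 0.061 SE, adjusted p = 0.00018 for the former and 0.15 ± 0.061 SE, adjusted p = 0.0532 for the latter. Of its stretches 67.3% occur in another gene and 69.1% of its transcript is overlapped on the same strand by Gm45233, so its count is uncertain.

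**Figure D3:**
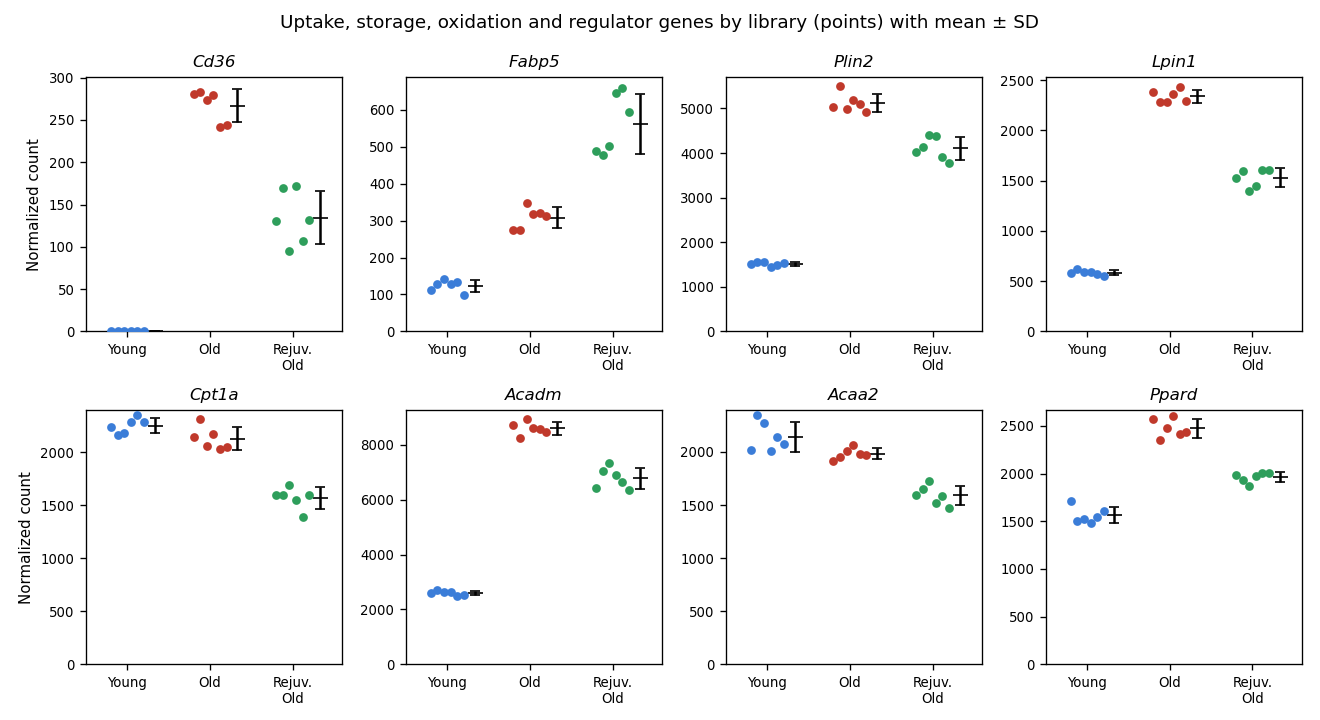
Each panel plots the normalized count of a gene (linear axis from 0) in each library (points, 6 per group), with the mean ± SD beside them. Cd36 is near 0 in young MSCs, Plin2, Lpin1, Acadm and Ppard put the rejuvenated old points between old and young, and Cpt1a and Acaa2 put them below both.

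Of the 4 regulators, Ppard and Ppargc1b fell after co-culture and none rose. Ppard (PPAR delta, a widely expressed fatty acid receptor; chr17:28232754-28301469) had 1483 to 1715 (median 1535) counts in young, 2347 to 2608 (median 2455) in old and 1870.5 to 2006 (median 1983) in rejuvenated old MSCs. The groups did not overlap and the rejuvenated old libraries lay between the others. The fold change was -0.33 ± 0.036 SE, adjusted p = 1.55e-07 for rejuvenated old against old MSCs and -0.66 ± 0.036 SE, adjusted p = 5.01e-14 for young against old MSCs. Ppargc1b (PGC-1 beta) was a low gene with 8.71 to 20.1 (median 15.6) counts in young, 13.6 to 26.6 (median 21.1) in old and 4.83 to 13.2 (median 10.4) in rejuvenated old MSCs. It fell after co-culture (log2 fold change -0.98 ± 0.26 SE, adjusted p = 0.00388), all rejuvenated old libraries lying below all old ones and overlapping the young ones.

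Ppargc1a (PGC-1 alpha, a coactivator of mitochondrial genes; chr5:51454249-52115853) was expressed in young MSCs and nearly absent from the others. It had 56.8 to 63.8 (median 59.2) counts in young, 1 to 4.81 (median 1.89) in old and 0 to 4.72 (median 0.948) in rejuvenated old MSCs, the last 2 groups resting on a few reads per library. Every young library lay above all others, with a log2 fold change of 4.30 ± 0.4 SE, adjusted p = 9.1e-10 against old MSCs. This value depends on the pseudocount and was 2.51 with a pseudocount of 10. Rejuvenated old against old MSCs gave a log2 fold change of -0.47 ± 0.4 SE, adjusted p = 0.377. Ppara (PPAR alpha) had 35.8 to 48.6, 31.5 to 49.5 and 30.2 to 45.7 counts in young, old and rejuvenated old MSCs and passed in no comparison.

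**Figure D4:**
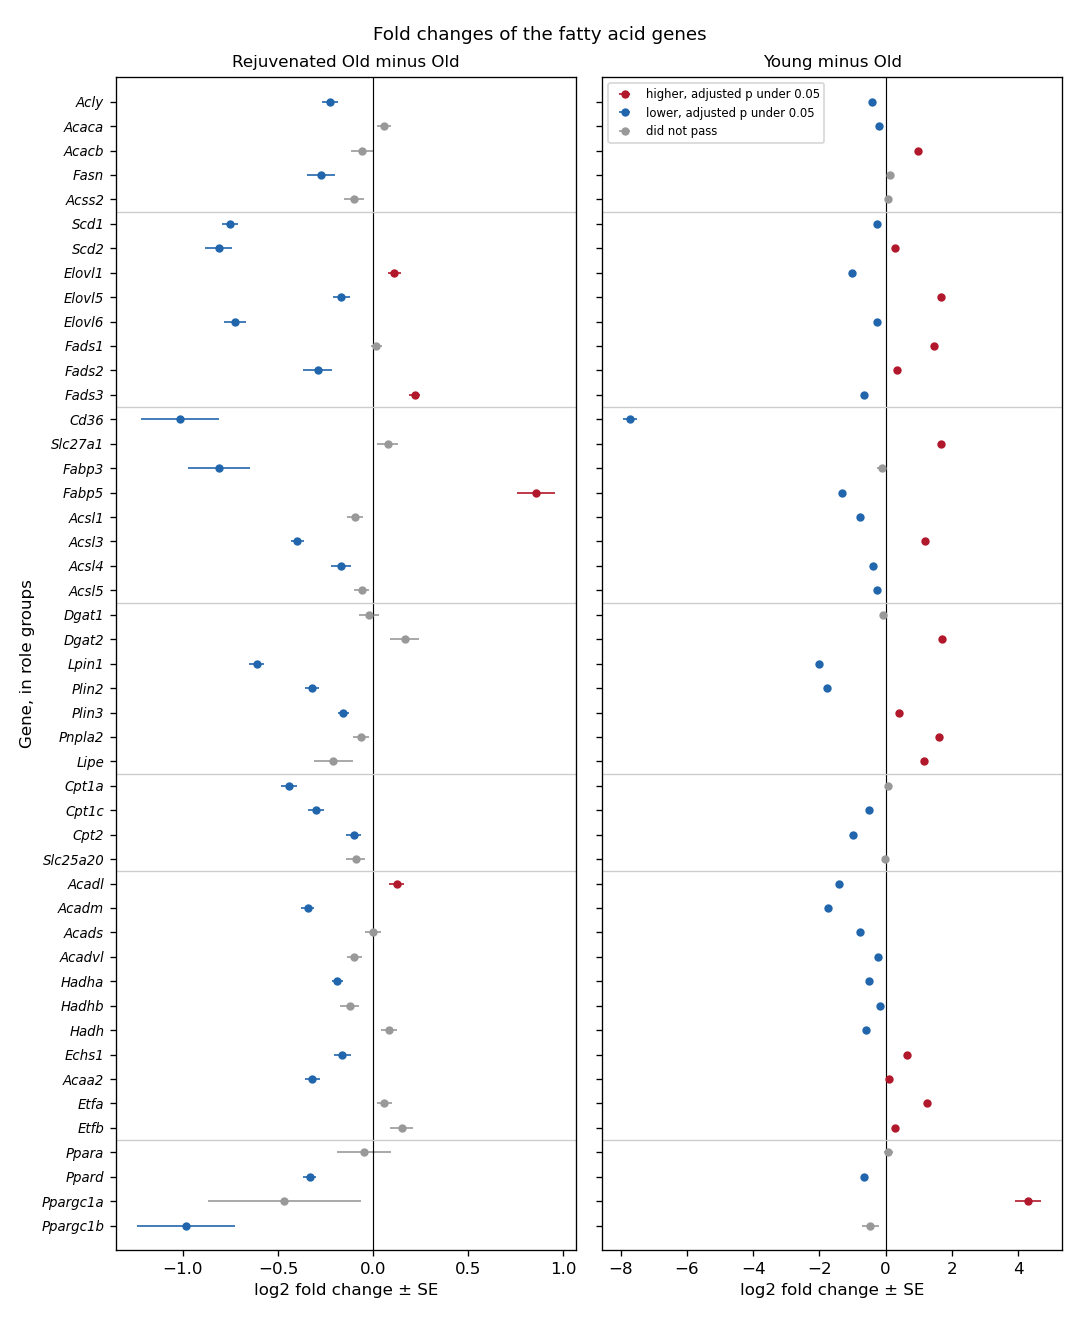
Points are log2 fold changes of log2(normalized count + 1) ± SE for the 47 genes in role order, rejuvenated old minus old MSCs on the left and young minus old on the right, colored by the test. On the left 23 points are lower and 4 higher, all between -1.02 and 0.86, and on the right 23 are lower and 16 higher over a wider scale, where the Cd36 and Ppargc1a points depend on the pseudocount.

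Side by side, the synthesis arm had 7 genes lower and 2 higher of 13 after co-culture, with a median log2 fold change of -0.17, and the oxidation arm 7 lower and 1 higher of 15, with a median of -0.10. Over all genes tested 20.6% were lower and 21.0% higher. All 6 rejuvenated old libraries lay below all old ones in 4 synthesis and 6 oxidation genes, against 11.6% of all genes tested. Between young and old MSCs the synthesis arm had 5 genes higher in young and 6 lower, with a median of 0.071, and the oxidation arm 4 higher and 9 lower, with a median of -0.23, against 41.6% higher and 44.1% lower over all genes tested. Between young and rejuvenated old MSCs the synthesis arm had 9 higher in young and 4 lower, with a median of 0.46, and the oxidation arm 5 higher and 8 lower, with a median of -0.13, against 41.5% and 44.1%. The medians of all genes tested in these 3 comparisons were 0.0081, -0.022 and -0.025, and the difference between the arms was not tested. The median absolute log2 fold change of the 47 genes was 0.17 after co-culture, where that of all genes was 0.15, 0.59 between young and old MSCs, where that of all genes was 0.60, and 0.69 between young and rejuvenated old MSCs, where that of all genes was 0.58.

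Summed per kilobase of main transcript, the 13 synthesis genes held 8728 to 9068 normalized counts in young, 8141 to 8426 in old and 7415 to 7794 in rejuvenated old MSCs, and no groups overlapped. The 15 oxidation genes held 19421 to 21374.5 in young, 21166 to 22519 in old and 19299.9 to 21729 in rejuvenated old MSCs, and here all groups overlapped. On the same scale Acadm held rank 1 of the 47 genes in old MSCs at 4197 and rank 8 in young MSCs at 1269. Plin2 held rank 3 in old MSCs at 2713, and Etfa rank 1 in young MSCs at 4569. Lowest were Cd36 in young MSCs and Ppargc1a in old and in rejuvenated old MSCs. These levels rest on a single transcript length per gene and carry no test.

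In the comparisons with young MSCs the medians of several chromosomes lay away from 0. The median log2 fold change of young against old MSCs was -0.69 over chromosome 1, 0.61 over chromosome 7 and -0.46 over chromosome 12. Chromosome 16 stood at -0.75 and carries none of the 47 genes. Smaller shifts lay on other chromosomes that carry some of them, such as 18 (-0.23), 17 (0.22) and 9 (0.20). On chromosomes 1, 7 and 12 lie 9 of the 47 genes (Acadl and Acsl3, then Dgat2, Pnpla2, Lipe, Cpt1c, Echs1 and Etfb, then Lpin1). Of these 9 genes 6 were higher and 3 lower in young MSCs, and of the other 38 genes 10 were higher and 20 lower. Over all genes tested 41.6% were higher and 44.1% lower. Relative to the median of its chromosome, Etfb turned from higher to lower in young than in old MSCs (-0.32, adjusted p = 2.98e-05) and Echs1 lost its call (0.038, adjusted p = 0.421). Acsl3 moved from 1.20 to 1.89, Acadl from -1.39 to -0.70, Cpt1c from -0.51 to -1.11, Pnpla2 from 1.62 to 1.02, Lipe from 1.17 to 0.57 and Dgat2 from 1.71 to 1.11, all still passing. After co-culture the medians of chromosomes 1, 7 and 12 were -0.0055, 0.059 and 0.0052, and the part of the chromosome shift in the age differences was not tested.

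Genes of the same pathways outside the 47 were taken from 4 lists of 116 genes in all, of which 98 were tested. After co-culture 35 of the 98 were lower and 15 higher, 35.7% and 15.3%, where 20.6% and 21.0% of all genes were. Of 24 further synthesis and SREBP genes tested 7 were lower and 2 higher. Srebf2, which encodes a sterol-sensing activator of lipid synthesis genes, fell (log2 fold change -0.61 ± 0.068 SE, adjusted p = 2.7e-07), and Elovl4, an elongase of very long chains (log2 fold change -0.48 ± 0.12 SE, adjusted p = 0.00357). Slc25a1, the mitochondrial citrate carrier, rose (log2 fold change 0.19 ± 0.041 SE, adjusted p = 0.00094), and Mcat, of mitochondrial fatty acid synthesis (log2 fold change 0.14 ± 0.051 SE, adjusted p = 0.0285).

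Of 25 further storage and lipolysis genes tested 11 were lower and 5 higher after co-culture. The droplet genes Plin1 and Fitm2 fell (log2 fold changes -0.70 ± 0.23 SE, adjusted p = 0.0194 and -0.65 ± 0.082 SE, adjusted p = 1.21e-06). Hilpda, an inhibitor of triglyceride lipase, and Fabp4, a fatty acid binding protein of adipocytes and macrophages, rose (log2 fold changes 0.65 ± 0.079 SE, adjusted p = 8.45e-07 and 0.48 ± 0.076 SE, adjusted p = 2.57e-05). Fabp4 had 52.5 to 76 counts in young, 1922 to 2263 in old and 2543 to 3418 in rejuvenated old MSCs, the same group order as Fabp5, and Plin1 was at 0 in every young library.

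Of 32 further oxidation genes tested 11 were lower and 5 higher. Their median log2 fold change was 0.031, where that of the oxidation arm was -0.10. The medians were -0.056 and -0.14 in the synthesis and storage lists above and -0.042 in the PPAR list below. The peroxisomal genes Acaa1b (a thiolase) and Acox3 (an acyl-CoA oxidase) fell (log2 fold changes -0.60 ± 0.2 SE, adjusted p = 0.0179 and -0.46 ± 0.035 SE, adjusted p = 6.39e-10). Acot2, a mitochondrial thioesterase, and Ehhadh, the peroxisomal bifunctional enzyme, rose (log2 fold changes 0.62 ± 0.076 SE, adjusted p = 8.01e-07 and 0.39 ± 0.13 SE, adjusted p = 0.0169). Of 17 PPAR partners and target genes tested 6 were lower and 3 higher. Nrip1 (a nuclear receptor corepressor) fell (log2 fold change -0.50 ± 0.16 SE, adjusted p = 0.0145). Angptl4, a secreted lipoprotein lipase inhibitor, and Pparg, the regulator of adipocyte formation, rose (log2 fold changes 0.62 ± 0.051 SE, adjusted p = 2.17e-09 and 0.21 ± 0.057 SE, adjusted p = 0.00517). Pparg had 295 to 391 counts in young, 4203 to 4389 in old and 4268 to 5446 in rejuvenated old MSCs, so Pparg rose after co-culture where Ppard fell.

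Between young and old MSCs the 4 lists had 8 genes higher and 14 lower in young (synthesis and SREBP), 6 and 16 (storage), 15 and 14 (oxidation) and 6 and 9 (PPAR partners and targets), against 41.6% and 44.1% of all genes tested. The adipocyte markers Fabp4, Plin1 and Pparg belong to these lists as well, so they are not independent of the marker sums given above.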

How the data were processed

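Bulk mRNA-seq was analysed for 18 cultures in 3 groups of 6, taken from the sample labels, with total reads on genes of 22936251 to 29559194 per library. Libraries were prepared with the TruSeq Stranded mRNA kit. The authors aligned reads to mm10 with HISAT2 and counted and normalized them with StringTie, featureCounts and DESeq2, and versions, annotation and strand setting are not given in the sources used here. The deposited file holds for each gene a signal, its reads divided by a size factor for each library, and values were whole multiples of that step for 100% of values within 0.01 read. Genes were matched by Entrez number to RefSeq GRCm38.p6 (25275 of 27179).

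The signal was tested as log2(value + 1) with limma 3.58.1 in R 4.3.3, all groups in 1 fit with a variance prior following the mean, over 14353 genes with a mean of at least 10, and p-values were adjusted by Benjamini-Hochberg at 0.05. DESeq2 1.42.0 and edgeR 4.0.16 on recovered reads were alternatives, among 15 settings and the omission of each of 18 libraries. On data simulated for rejuvenated old against old MSCs over 14353 genes, limma recovered 76 of 100 changes of 0.5 and 93 of 100 changes of 1 on the log2 scale, with 12 false calls. Only 200 genes were changed there, whereas 41.6% of genes passed in the data, and changes below 0.5 were not simulated. These figures therefore do not give the rates of false or missed calls in the data. Within groups no pair of libraries agreed within sampling noise (chi-square per degree of freedom 2.64 to 24.0 over 45 pairs). Levels per kilobase used the longest principal transcript in GENCODE vM21. Genes that did not exceed 3 reads in any library of a group were at the floor. That limit covers counting error only. The smallest and largest values and the median are given for 21 genes, the 2 largest changes per role group after co-culture and between young and old MSCs, and further genes outside the 47 are the 2 largest rises and falls of each pathway list and the 2 most abundant and the absent ones of each marker list, with Thy1 and any other gene named after its values were seen. A gene that this rule names is not reported here. The 47 genes and all lists were chosen with earlier results of these data known.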

Additional observations from a re-analysis of the deposited data

Results flagged for a closer look

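Among the 140 groups of 6 libraries examined for the fatty acid genes, 4 held a library whose gap to its nearest neighbour exceeded 0.625 of the group's range, where chance flags about 1 group in 20. Fads1 was 7758 normalized counts in young replicate 3, the next young library being at 7312. Slc27a1 was 1632 in young replicate 1, with the next at 1511. In rejuvenated old replicate 5, Acsl4 was 1359, below the next lowest library at 1595, and Dgat1 was 1998, above the next highest at 1796. None of these 4 genes changed its call in any comparison when the library concerned was left out.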

How the results depend on the processing

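Of the genes called, 23 of 27 between rejuvenated old and old MSCs, 34 of 39 between young and old MSCs and 36 of 42 between young and rejuvenated old MSCs kept their call and direction in each of 31 alternatives, the stricter thresholds aside. The calls lost were those of Acadl and Cpt2 in the first comparison, Acaa2, Echs1, Etfb and Hadhb in the second, and Acadvl, Acly, Acsl4 and Etfb in the third. Relative to the chromosome median, Etfb was reversed in young against old MSCs (-0.32) and in young against rejuvenated old MSCs (-0.41), which follows from the median of chromosome 7. The latter call was also lost in further settings. Among these were the replicate block (adjusted p = 0.0561) and the omission of rejuvenated old replicate 6 (adjusted p = 0.145). With every library scaled to the same total, Hadhb lost its call in the second comparison (adjusted p = 0.0811), and Acadvl, Acly and Acsl4 lost theirs in the third (0.309, 0.0649 and 0.0683). A minimum mean of 50 removed Ppara, Ppargc1a, Ppargc1b and Fabp3 from the test, which left 2, 1 and 2 called genes of the 3 comparisons without a value there (Fabp3 and Ppargc1b, Ppargc1a, and Fabp3 and Ppargc1a), and these kept their calls in the other alternatives. An adjusted p under 0.01 left 2 genes higher and 21 lower between rejuvenated old and old MSCs, against 2115 and 2172 of the 14353 genes tested. A log2 fold change of at least 0.5 left 1 higher and 7 lower there, against 621 and 618 of all genes tested. For young against old MSCs it left 11 higher and 15 lower, against 3766 and 4303. For young against rejuvenated old MSCs it left 16 higher and 12 lower, against 3635 and 4238. Leaving out each library in turn gave 3 to 6 genes higher and 22 to 27 lower for rejuvenated old against old MSCs, 15 to 18 and 23 to 24 for young against old, and 21 to 23 and 20 for young against rejuvenated old. The 6 were reached without rejuvenated old replicate 6, where Etfb and Hadh also passed. DESeq2 and edgeR on recovered reads called 5 higher and 25 lower, and 5 and 24, between rejuvenated old and old MSCs.

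With the replicate number as a block the counts were 4 and 23, 16 and 23, and 21 and 20. The numbers do not pair the samples, since the deviations of same-numbered libraries correlated by -0.152 to 0.0736 over 18 pairs and 1 of 18 libraries correlated best with its own number. Depth limits Ppargc1a in old and rejuvenated old MSCs and Cd36 in young MSCs, which rest on a few reads.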

Other observations

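A few genes of the further pathway lists, chosen after their values were seen, stood at young levels after co-culture. Rxra, the partner receptor with which PPARs bind DNA, had 2983 to 3184 normalized counts in young, 3853 to 4178 in old and 2959.6 to 3190.2 in rejuvenated old MSCs, and its log2 fold change of young against rejuvenated old MSCs was 0.0022 (limma, adjusted p = 0.942). Srebf2 had 1055 to 1245 counts in young, 1624 to 1999.7 in old and 958 to 1383 in rejuvenated old MSCs (-0.041, adjusted p = 0.573). Fitm2, which acts in droplet formation, had 181 to 223 counts in young, 275 to 349.9 in old and 161 to 217 in rejuvenated old MSCs (0.077, adjusted p = 0.380). In each of these genes all rejuvenated old libraries lay below all old ones and overlapped the young ones. A p that misses the threshold does not show that the levels were equal.

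Adrb3, the beta-3 adrenergic receptor of adipocytes, which stimulates lipolysis there, showed the opposite pattern. It had 0 to 9.96 counts in young, 67.9 to 96.8 in old and 219 to 374 in rejuvenated old MSCs, with no overlap, and a log2 fold change of 1.81 after co-culture (limma, adjusted p = 0.000360). It is among the adipocyte markers whose sum was higher in every rejuvenated old library than in any old one.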
